A study of Mus musculus with 8 samples.

Results

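A set of 10 mast cell and basophil genes, of the 54146 genes in the count table, was followed in adipose tissue macrophages that had been sorted by the Fc receptor FCGR4. They are the granule protease genes Tpsb2, Cma1, Cpa3, Mcpt4 and Tpsg1, the receptor genes Kit, Fcer1a and Ms4a2, the histamine synthesis gene Hdc and the transcription factor gene Gata2. The genes were picked by name, and the list was chosen from the measured difference between FCGR4+ and FCGR4- libraries in these same samples, so that difference is described here and not tested. All 10 genes were found, and all 10 were among the 17095 genes that entered the fit.

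The libraries came from 4 male C57BL/6 mice (labelled C57Bl6) that ate a high-fat high-cholesterol diet ad libitum for 24 weeks and were then given 30% less food for 2 weeks. Epididymal white adipose tissue was digested and cells were sorted as CD45+, CD3-, B220-, Ly6G-, SiglecF- and CD11b+, then divided into FCGR4+ and FCGR4-. Each mouse gave 1 library of each population, so both populations shared the diet, the restriction and the animal, and there were 4 FCGR4+ and 4 FCGR4- libraries. The gate held no antibody against an antigen restricted to mast cells or basophils. All mice were food restricted, so no comparison with unrestricted mice could be made. Animal IDs in the labels fell under 2 prefixes, with mice 1 and 2 under one and mice 3 and 4 under the other.

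Mast cells are tissue-resident cells that mature under the growth factor receptor KIT, carry the high-affinity IgE receptor, and store histamine, heparin, tryptases, chymases and carboxypeptidase A3 in granules. Basophils are circulating cells that share the IgE receptor and histamine with mast cells but hold a different set of proteases. Both lineages depend on GATA2, and mast cells are a regular, minor resident of adipose tissue.

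Libraries held 35992794 to 66856746 assigned reads. Fcgr4 itself was 139 to 236 CPM (counts scaled to library size and TMM factor) in FCGR4+ libraries and 48.5 to 82.9 in FCGR4- libraries, a log2 difference of 1.61 ± 0.173 (SE, n = 4 pairs; adjusted p = 0.0162, edgeR's quasi-likelihood test with Benjamini-Hochberg adjustment). The 12 macrophage genes checked were abundant in all 8 libraries, with a summed level of 30484 to 54967 CPM in FCGR4+ and 24337 to 48382 CPM in FCGR4- libraries. The fit called 1 of them, Cd163, lower in FCGR4+ libraries (-0.96 ± 0.155 SE on the log2 scale, adjusted p = 0.0602), against 1.19% of all genes. With no replicate block edgeR called none of them lower, and DESeq2 called 1 lower (4.87% of all genes) and 7 higher (192 of 17095 genes). Of 8 sort marker genes, Cd3g (-2.25 ± 0.387 SE, adjusted p = 0.0681) and Cd3d (-2.34 ± 0.428, adjusted p = 0.0815) were called lower (1.19% of all genes), from at most 4.56 CPM in FCGR4- libraries. Neither was called with no replicate block, and DESeq2 called 4 of the 8 lower (4.87% of all genes) and 1 higher.

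Because GATA2 is a member and GATA factors are known regulators of mast cell genes, the reference promoters were inspected for GATA letters. RefSeq windows on GRCm38.p6, the patch release of mm10, ran from 250 bases before to 50 bases after each start site, and were at hand for 9 of the 10 genes in 12 windows. Any of 4 words on either strand counted as a match, namely AGATAA, its variant AGATAG, the word TGATAA and its variant TGATAG, and matches were in 8 of the 12 windows (7 of the 9 genes) and in 29.8% of all 32851 windows of the same length. The 5 windows printed here are those of protease and receptor genes with a single start site and at least 1 match. Each is written 5′ to 3′ on the strand of its gene, in lower case, with the GATA letters in capitals (a run ending in ATCT is a match on the other strand).
Cpa3, chr3:20242132-20242431, minus strand: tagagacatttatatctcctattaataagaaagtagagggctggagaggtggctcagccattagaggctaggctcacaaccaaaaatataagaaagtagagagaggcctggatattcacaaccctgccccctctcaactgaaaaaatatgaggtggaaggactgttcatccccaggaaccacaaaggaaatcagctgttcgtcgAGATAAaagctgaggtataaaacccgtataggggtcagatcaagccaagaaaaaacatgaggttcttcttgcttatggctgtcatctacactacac
Mcpt4, chr14:56062261-56062560, minus strand: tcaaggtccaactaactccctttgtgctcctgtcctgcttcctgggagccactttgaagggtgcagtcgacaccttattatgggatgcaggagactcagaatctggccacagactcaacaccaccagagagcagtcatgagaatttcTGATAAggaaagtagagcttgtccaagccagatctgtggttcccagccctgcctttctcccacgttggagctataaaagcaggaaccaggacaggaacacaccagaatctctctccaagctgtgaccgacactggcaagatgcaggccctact
Cma1, chr14:55944626-55944925, minus strand: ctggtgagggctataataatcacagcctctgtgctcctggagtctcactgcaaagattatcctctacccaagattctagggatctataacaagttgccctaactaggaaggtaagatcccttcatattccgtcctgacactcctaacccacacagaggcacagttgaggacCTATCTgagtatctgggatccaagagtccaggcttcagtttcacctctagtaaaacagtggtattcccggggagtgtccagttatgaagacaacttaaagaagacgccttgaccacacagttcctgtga
Ms4a2, chr19:11623670-11623969, minus strand: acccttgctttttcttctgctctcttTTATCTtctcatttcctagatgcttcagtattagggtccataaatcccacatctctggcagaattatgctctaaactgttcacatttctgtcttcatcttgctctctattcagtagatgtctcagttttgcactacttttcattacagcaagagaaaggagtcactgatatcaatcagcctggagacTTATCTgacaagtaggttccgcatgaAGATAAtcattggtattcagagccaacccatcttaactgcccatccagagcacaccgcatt
Fcer1a, chr1:173227180-173227479, minus strand: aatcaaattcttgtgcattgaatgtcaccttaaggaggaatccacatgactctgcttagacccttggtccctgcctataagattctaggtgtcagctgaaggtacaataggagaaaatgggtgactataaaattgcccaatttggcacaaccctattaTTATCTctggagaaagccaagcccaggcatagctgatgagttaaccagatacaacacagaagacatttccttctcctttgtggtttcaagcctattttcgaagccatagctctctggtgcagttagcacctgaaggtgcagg

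The first base of the match lay at -46 from the start site in Cpa3, at -103 in Mcpt4, at -79 in Cma1 and at -92 in Fcer1a. Ms4a2 held 3 matches, at -224, -37 and -11, and 7.77% of all windows held at least 2. Hdc held 1 match at -221, and the windows of Tpsg1 held matches at -93, 30 and 39. No match was found in the windows of Kit or Gata2. The letters TATAAA, those of a TATA box, were in 13.6% of all windows. On the strand of the gene they lay at -31 in Cpa3, at -32 in Mcpt4 and at -125 in Fcer1a. Cpa3 also held them at -242 on the other strand, and none of these matches overlapped a GATA match. The letters CACGTG or CATGTG, those of an E-box bound by factors such as MITF, were in the Fcer1a window alone, against 20.4% of all windows. This match lay at -208 on the other strand. These matches describe letters in the reference and no binding was measured.

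The mast cell tryptase gene Tpsb2 (chr17:25366550-25368094, mm10, plus strand), which encodes the main tryptase of connective tissue mast cells, had the highest level per kilobase of the 10 genes in each of the 4 FCGR4- libraries. In FCGR4- libraries of mice 1 to 4 it was 699, 435, 76.7 and 184 CPM, and in the FCGR4+ libraries of the same mice 7.10, 9.15, 5.76 and 1.85 CPM. Every FCGR4- library lay above every FCGR4+ library. The fitted log2 difference, FCGR4+ minus FCGR4-, was -5.66 ± 0.557 (SE, n = 4 pairs).

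The chymase gene Cma1 (chr14:55941451-55944675, minus strand), whose product is stored in mast cell granules with heparin, measured 460, 263, 46.8 and 116 CPM in FCGR4- libraries of mice 1 to 4. The FCGR4+ values were 5.87, 3.89, 4.71 and 2.03 CPM, a fitted log2 difference of -5.43 ± 0.563 (SE). The populations did not overlap, although the per-mouse log2 ratio was much smaller in mouse 3 (-3.30) than in the other mice (-6.28 to -5.80). Some 5.38% of the 50-base words of Cma1 transcripts also occur in Gm48934, which lies between the chymase genes, and reads mapping to several places were counted.

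Mcpt4 (chr14:56059629-56062313, minus strand), which encodes a second chymase of connective tissue mast cells, measured 178, 104, 21.4 and 42.8 CPM in FCGR4- libraries. In FCGR4+ libraries it was 2.75, 1.73, 0.782 and 0.477 CPM, and the fitted log2 difference was -5.79 ± 0.302 (SE). Its per-mouse ratios were the most alike of the proteases, from -6.38 to -4.71. Cma2 and Mcpt9 share 5.48% of its 50-base words.

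Cpa3 (chr3:20215620-20242181, minus strand) encodes carboxypeptidase A3, the granule exopeptidase stored beside chymase. It measured 527, 229, 29.6 and 76.3 CPM in FCGR4- libraries and 5.29, 1.75, 1.72 and 1.49 CPM in FCGR4+ libraries, with a fitted log2 difference of -5.90 ± 0.530 (SE). Among the 10 genes Cpa3 spread most between mice, 17.8-fold from mouse 3 to mouse 1 in FCGR4- libraries. Its FCGR4+ value in mouse 1 stood above those of the other mice, and that mouse also had the highest FCGR4- value.

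Tpsg1 (chr17:25369273-25374442, plus strand), the gene of a membrane-anchored tryptase, was the scarcest protease. FCGR4- libraries of mice 1 to 4 held 290, 75, 38 and 87 counts, or 4.46, 2.21, 0.686 and 1.27 CPM. The FCGR4+ libraries held 1, 0, 0 and 0 counts, where 3 counts correspond to 0.0479 to 0.0624 CPM. The ratio of the summed counts, FCGR4- over FCGR4+ and scaled for summed library size, was 480 with a 95% exact interval of 85.8 to 19010 that covers counting error only.

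KIT, the receptor for stem cell factor, is the survival receptor of mast cells, and is also carried by progenitors and some lymphoid cells. Kit (chr5:75574916-75656722, plus strand) was 40.0, 26.6, 6.46 and 5.93 CPM in FCGR4- libraries of mice 1 to 4 and 1.37, 1.12, 0.0160 and 0.353 CPM in FCGR4+ libraries. The populations did not overlap, and the FCGR4+ library of mouse 3 held 1 count. The fitted log2 difference was -4.95 ± 0.495 (SE), with per-mouse ratios from -6.96 to -3.94.

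The high-affinity IgE receptor consists of an IgE-binding alpha chain, a signal-amplifying beta chain and a gamma chain shared with other Fc receptors. Fcer1a (chr1:173221284-173227214, minus strand), the alpha chain gene, was 144, 69.0, 10.7 and 22.7 CPM in FCGR4- libraries and 0.624, 0.437, 0.0319 and 0.643 CPM in FCGR4+ libraries, a fitted log2 difference of -6.95 ± 0.515 (SE). In FCGR4+ libraries it was low in every mouse and at 2 counts in mouse 3. Ms4a2 (chr19:11615523-11623719, minus strand), the beta chain gene, was 24.0, 6.30, 2.40 and 2.37 CPM in FCGR4- libraries and 1.01, 0.187, 0 and 0 CPM in FCGR4+ libraries, a fitted log2 difference of -5.52 ± 0.651 (SE). No Ms4a2 read was counted in the FCGR4+ libraries of mice 3 and 4, so its fitted value there depends on the prior count. The gamma chain gene Fcer1g went another way, at 840 to 1259 CPM in FCGR4- and 969 to 1664 CPM in FCGR4+ libraries, and did not pass the test (log2 difference 0.26 ± 0.122 SE, adjusted p = 0.544, edgeR's quasi-likelihood test). In FCGR4+ libraries the IgE-binding and amplifying chains were thus scarce while the shared chain was abundant.

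Gata2 (chr6:88193891-88207032, plus strand), a zinc finger factor needed for mast cell and basophil development and also used by progenitors and endothelium, was 9.83, 7.27, 2.26 and 3.58 CPM in FCGR4- libraries. Its FCGR4+ values were 0.438, 0.125, 0 and 0 CPM, and the fitted log2 difference was -5.98 ± 0.765 (SE). No Gata2 read was counted in the FCGR4+ libraries of mice 3 and 4, the same libraries that held none of Ms4a2.

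Hdc (chr2:126593667-126619299, minus strand) encodes histidine decarboxylase, which makes histamine in mast cells and basophils and is also known from neutrophils and immature myeloid cells. It was 64.0, 45.8, 195 and 50.5 CPM in FCGR4- libraries of mice 1 to 4 and 3.79, 5.74, 17.4 and 7.64 CPM in FCGR4+ libraries. Mouse 3 was highest in both populations, whereas among FCGR4- libraries the other 9 genes were at or near their lowest in that mouse. The fitted log2 difference was -3.32 ± 0.247 (SE), the smallest of the 10, and the populations did not overlap.

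**Figure D1:**
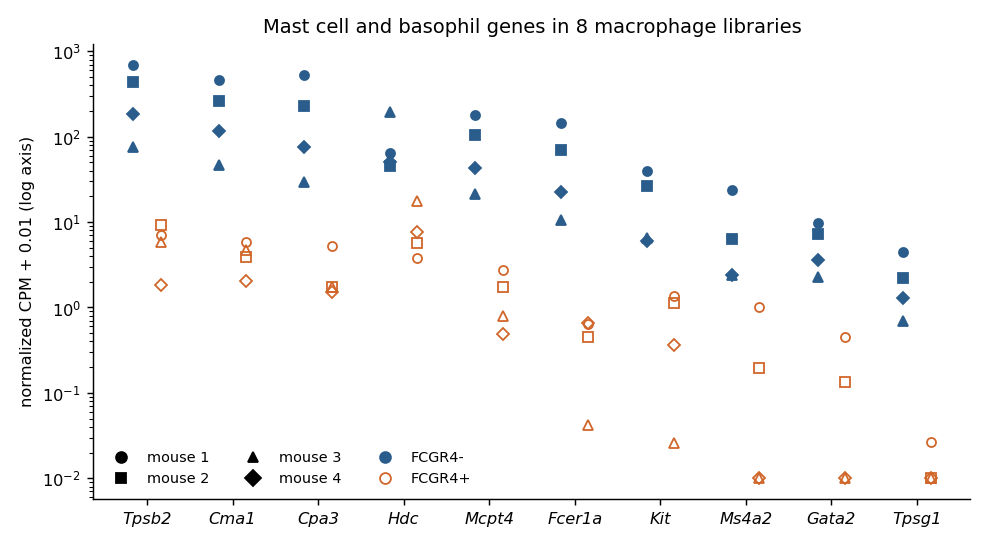
Normalized CPM plus 0.01 on a log axis for the 10 genes, ordered by their mean in FCGR4- libraries, with filled blue symbols for FCGR4- and open orange symbols for FCGR4+ libraries and 1 symbol shape for each mouse; points at the bottom are counts of 0. For every gene the 4 filled symbols lie above the 4 open ones, and the triangle of mouse 3 is the top point for Hdc in both populations.

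In each of the 4 mice all 10 genes had the lower level in the FCGR4+ library, with a median fitted log2 difference of -5.72 beside -0.0025 over all genes tested. The fit called 10 of 10 lower at an adjusted p under 0.1 against a background of 1.19% of all genes tested called lower and 0.0819% called higher. Non-overlap with FCGR4- above FCGR4+ was found for 10 of 10, against 3.02% of all genes. With no replicate block 6 of 10 were called lower (background 0.275%), and with DESeq2 10 of 10 (background 4.87%). Since the genes were chosen on this contrast, nothing is read from these counts. Only 5 of the 10 held at least 10 counts in all 8 libraries, and 5 held 3 counts or fewer in at least 1 FCGR4+ library. In bulk libraries fewer cells of a type and less RNA per cell cannot be told apart.

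**Figure D2:**
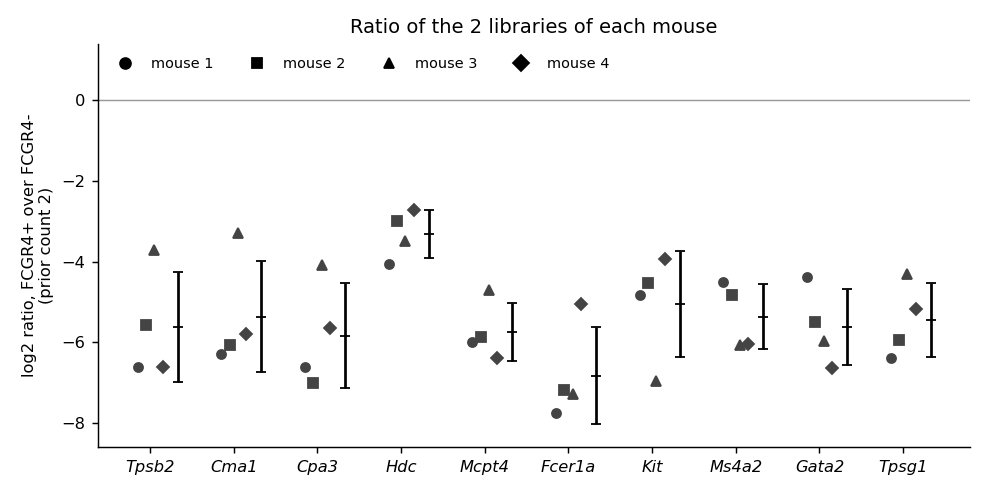
Log2 ratio of the FCGR4+ over the FCGR4- library of each mouse (prior count 2) for the 10 genes, with 1 symbol for each mouse and the mean ± SD over 4 mice as a bar to the right. Every ratio lies below 0; those of Hdc lie between -4.06 and -2.72, and mouse 3 has the smallest drop for all 5 protease genes and the largest for Kit.

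Together the 10 genes made up 0.225%, 0.112%, 0.0404% and 0.0559% of the counts in FCGR4- libraries of mice 1 to 4. Their summed level was 2150, 1188, 392 and 505 CPM there and 28.3, 24.1, 30.5 and 14.5 CPM in the FCGR4+ libraries of the same mice. Without Hdc the sums were 2086, 1142, 197 and 455 CPM against 24.5, 18.4, 13.03 and 6.85 CPM. Hdc contributed 2.98%, 3.85%, 49.8% and 9.996% of the summed level in FCGR4- libraries, and 13.4%, 23.8%, 57.2% and 52.7% in FCGR4+ libraries. Removing 1 gene therefore changed which FCGR4+ library had the highest sum, from mouse 3 to mouse 1.

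The genes also differed between mice within the FCGR4- population. The range over the 4 mice was 3.12 on the log2 scale at the median of the 10 genes (2.09 to 4.15), beside a median of 0.835 over all genes tested, and 15.2% of those had a range at least as wide as the narrowest of the 10. Of the 10 genes 7 (Tpsb2, Cma1, Cpa3, Mcpt4, Tpsg1, Fcer1a and Gata2) ran in the order mouse 1, 2, 4, 3 from high to low, an order shared by 7.13% of all genes tested. Kit and Ms4a2 ran in the order mouse 1, 2, 3, 4, with mice 3 and 4 nearly equal. Mouse 1 was highest for 9 of 10, and for 29.1% of all genes tested. For these 9 genes both mice of one ID prefix therefore lay above both mice of the other in FCGR4- libraries, and what else differed between these animals was not tested.

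**Figure D3:**
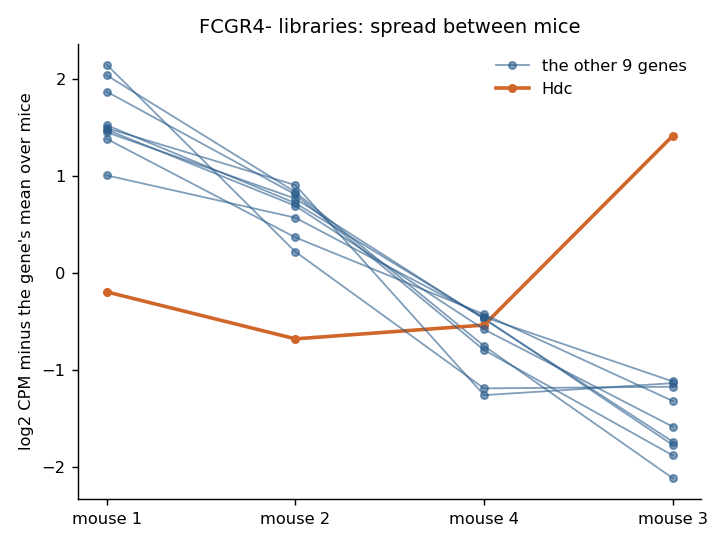
Log2 CPM in the 4 FCGR4- libraries, each gene centered on its own mean, with mice on the x axis in the order 1, 2, 4, 3; thin blue lines are the other 9 genes and the thick orange line is Hdc. Blue lines fall by a factor of 4.36 (Gata2) to 17.8 (Cpa3) from their highest to their lowest mouse, while Hdc peaks in mouse 3.

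Divided by gene length, so that genes could be ordered within a library, the mean level in FCGR4- libraries was 323 ± 257 CPM per kilobase (SD, n = 4) for Tpsb2, 203 ± 168 for Cma1 and 142 ± 148 for Cpa3. Mcpt4 followed at 78.1 ± 63.5 and Fcer1a at 61.7 ± 60.5. Hdc averaged 13.9 ± 11.2, Ms4a2 3.11 ± 3.66, Kit 2.22 ± 1.86, Tpsg1 1.55 ± 1.19 and Gata2 1.06 ± 0.641. No pair of neighbors in this order differed by more than the larger of their SDs. Within single mice the order was steadier: Tpsb2, Cma1, Cpa3, Mcpt4 and Fcer1a ranked this way in 4 of 4 FCGR4- libraries, and Gata2 was the lowest of the 10 in each. In mouse 3 Hdc, at 30.5 CPM per kilobase, stood between Cma1 (42.9) and Cpa3 (19.5).

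The make-up of the group shifted between mice. Relative to Cpa3 in the same FCGR4- library, Tpsb2 CPM was 1.33, 1.90, 2.59 and 2.41 times as high in mice 1 to 4, and Cma1 0.872, 1.15, 1.58 and 1.52 times. Fcer1a stayed within 0.273 to 0.361 of Cpa3. Hdc went from 0.121 of Cpa3 in mouse 1 to 6.58 times in mouse 3.

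The proteases sit in 2 clusters of related genes. Cma1 and Mcpt4 lie 114953 bases apart on chromosome 14, and Tpsb2 and Tpsg1 lie 1178 bases apart on chromosome 17, on the same strand. Within 200000 bases on either side of the chymase pair (a window set after the values were seen), 18 of 40 genes were tested, and besides Cma1 and Mcpt4, which were chosen on this contrast, Gm48934 and the granzyme gene Gzmb were called lower (1.19% of all genes). Gm48934 shares 50-base words with Cma1. Around the tryptase pair 12 of 22 were tested, and besides the chosen Tpsb2 and Tpsg1 the gene called lower was Tpsab1. All 3 neighbors had under 10 counts in at least 1 FCGR4+ library and entered the fit through the FCGR4- libraries, so nothing is read from these counts. The mucosal mast cell protease genes Mcpt1 and Mcpt2, in the chymase cluster, were nearly silent, with at most 1 count of Mcpt1 and at most 0.385 CPM of Mcpt2 in any library. Cacna1h, which overlaps Tpsg1 on the other strand, held at most 13 counts, and the counting did not use strand.

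Of 32 other mast cell genes, 27 were tested, 11 were lower in FCGR4+ libraries (40.7%, against 1.19% of all genes tested) and 0 were higher (edgeR's quasi-likelihood test, adjusted p under 0.1), with a median log2 difference of -2.64. With no replicate block 4 were lower (0.275% of all genes), and with DESeq2 16 were lower (4.87% of all genes) and 1 higher. Of the 11 genes, 9 had under 10 counts in at least 1 FCGR4+ library and entered the fit through the FCGR4- libraries, where they were high, so the share is not read as a result. With 10 counts required in every library, 2 of 11 tested genes were called lower, against 237 of all 13923 genes tested. The list was written with earlier results of these data known. Tpsab1, the gene of the other soluble mast cell tryptase, fell most. Its values were 24.9, 17.1, 3.27 and 7.22 CPM in FCGR4- libraries and 0.152, 0.187, 0 and 0 CPM in FCGR4+ libraries (-7.42 ± 0.530 SE, adjusted p = 0.006). Mrgprb2, the receptor through which mast cells respond to basic peptides and drugs, fell from 10.7, 4.18, 0.867 and 2.05 CPM to 0.185, 0.104, 0.0160 and 0 CPM (-5.92 ± 0.564, adjusted p = 0.00902). Both followed the mouse order of the proteases in FCGR4- libraries.

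The related receptor gene Mrgprb1 changed by -6.71 ± 0.772 (SE, log2 scale; adjusted p = 0.0208, edgeR). Hs6st2, a heparan sulfate sulfotransferase gene, changed by -6.43 ± 0.774 (adjusted p = 0.0238), and Tph1, which starts serotonin synthesis, by -5.90 ± 0.861 (adjusted p = 0.0487). The serotonin transporter gene Slc6a4 changed by -4.98 ± 0.757 (adjusted p = 0.0527) and Ptger3, a prostaglandin E receptor gene, by -4.22 ± 0.578 (adjusted p = 0.0396). The G protein regulator gene Rgs13 changed by -4.85 ± 0.800 (adjusted p = 0.0636). Gata1, the second GATA factor of the lineage, held 108, 25, 46 and 49 counts in FCGR4- libraries and 0, 0, 0 and 2 in FCGR4+ libraries (adjusted p = 0.0706). Il1rl1, the interleukin 33 receptor gene, also used by group 2 innate lymphoid cells, changed by -1.56 ± 0.198 (adjusted p = 0.0300), and Cd34, shared with progenitors and endothelium, by -2.08 ± 0.363 (adjusted p = 0.0699). Other listed genes did not pass, among them Mitf (0.10) and the prostaglandin D synthase gene Hpgds (0.60), which the FCGR4+ libraries held at 179 to 366 CPM. Log2 differences of the genes that did not pass ran from -5.33 (Ctsg) to 0.85 (Ltc4s). Of the 27 genes tested, 22 had a negative difference.

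Of 14 basophil genes 12 were tested, 3 were lower in FCGR4+ libraries (25.0%, against 1.19% of all genes tested) and 0 higher, and with no replicate block edgeR called 0 (5 had an unadjusted p under 0.05 in the blocked fit, and DESeq2 called 5 lower, against 4.87% of all genes). With 10 counts required in every library, 1 of 9 tested genes was called lower, against 237 of all 13923 genes tested. Cyp11a1 and Itga2b had entered the fit through the FCGR4- libraries, so the 25.0% is not read as a result. Mcpt8, the protease that marks mouse basophils, was at 0 in all 4 FCGR4+ libraries and at 1.09, 0, 0.0181 and 0.190 CPM in FCGR4- libraries, too low to be tested. Prss34, a protease gene of basophils and some mast cells that lies in the tryptase cluster, was 20.6, 18.5, 1.72 and 6.21 CPM in FCGR4- libraries and at most 0.767 CPM in FCGR4+ libraries, and did not pass (-4.72 ± 1.03 SE, adjusted p = 0.145, edgeR). Its order over mice was that of the proteases.

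The 3 called genes were Cyp11a1, Itga2b and Ifitm1. Cyp11a1, a steroid synthesis gene, changed by -5.65 ± 0.777 (SE; adjusted p = 0.0396, edgeR), and Itga2b, the integrin alpha IIb gene of platelets and progenitors, by -4.70 ± 0.643 (adjusted p = 0.0396). Ifitm1, an interferon-induced membrane protein gene, was 11.5, 14.2, 136 and 42.3 CPM in FCGR4- libraries and 3.89, 3.41, 33.5 and 12.02 CPM in FCGR4+ libraries (-1.86 ± 0.151, adjusted p = 0.00731). It was highest in mouse 3 in both populations, as Hdc was, and the populations overlapped.

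Lists of downstream genes shared with other leukocytes were short, and with 1.19% of all genes called lower a count of 0 in them says nothing particular about these genes. DESeq2 called 4.87% of all genes lower, and no share of all genes at an unadjusted p is given. Of 21 IgE receptor signaling genes, all tested, edgeR called 0, with 1 (Lat) at an unadjusted p under 0.05 and 1 by DESeq2. Of 16 genes of the KIT pathway, all tested, it called 0, with 1 (Stat5a) at an unadjusted p under 0.05 and 1 by DESeq2. The KIT ligand gene Kitl was 19.5 to 91.4 CPM in FCGR4+ and 18.9 to 77.0 CPM in FCGR4- libraries (0.58 ± 0.307 SE, adjusted p = 0.574, edgeR). Of 15 genes that make or sense amines, prostaglandins and leukotrienes, 11 were tested and 0 called, with 1 (Alox5) at an unadjusted p under 0.05 and 1 by DESeq2. The medians of the 3 lists were -0.09, 0.04 and -0.13 on the log2 scale.

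**Figure D4:**
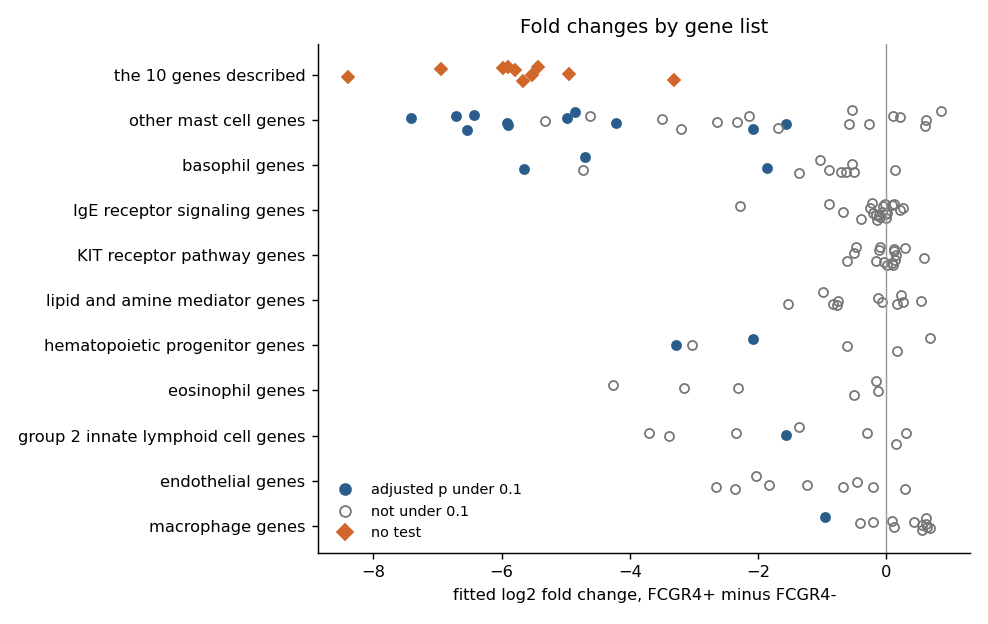
Fitted log2 difference, FCGR4+ minus FCGR4-, on the x axis for every tested gene of each list, with vertical scatter for display; orange diamonds are the 10 genes (no test), filled blue circles passed an adjusted p under 0.1 and open circles did not. The 10 genes lie between -8.40 and -3.32, 11 filled circles stand in the row of other mast cell genes, and the IgE receptor, KIT and mediator rows hold none.

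Some of the 10 genes are used by other cells, so the markers of those cells are given beside them. Of 10 progenitor genes 6 were tested and 2, Cd34 and Flt3, were lower in FCGR4+ libraries (1.19% of all genes tested). With no replicate block none were (0.275% of all genes), 2 had an unadjusted p under 0.05, and DESeq2 called 2 lower (4.87% of all genes). The same shares of all genes apply to the next lists. The summed level of the progenitor genes was 13.04 to 16.6 CPM in FCGR4+ and 28.5 to 56.6 CPM in FCGR4- libraries. The primary granule genes Mpo, Elane and Ms4a3 were at 0.325 CPM or below in every library. Of 10 eosinophil genes 6 were tested and edgeR called 0 (1 at an unadjusted p under 0.05, 0 by DESeq2). Their sum was 84.6 to 188 CPM against 69.7 to 394.6 CPM, and Prg3 was at 0 and Epx at no more than 0.0883 CPM in every library. Of 10 genes of group 2 innate lymphoid cells 8 were tested and 1, Il1rl1, was lower (none with no replicate block, 3 at an unadjusted p under 0.05, 3 by DESeq2), with a sum of 83.8 to 181 CPM against 71.3 to 185 CPM and Il13 at 0 in all libraries. Of 10 endothelial genes 9 were tested and edgeR called 0 (2 at an unadjusted p under 0.05, 1 by DESeq2), with a sum of 11.3 to 25.6 CPM against 17.7 to 31.0 CPM. Fitted log2 differences were negative for 4 of 6 progenitor, 6 of 6 eosinophil, 6 of 8 lymphoid and 8 of 9 endothelial genes tested. The medians of these lists were -1.35, -1.41, -1.46 and -1.24. Counts at an unadjusted p are given with no share of all genes, so nothing is read from them. The part of these other cell types in the levels of Kit, Gata2 and Hdc was not tested.

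The 10 tested genes outside the list that were nearest to its median profile were found by the root mean square difference between centered log2 profiles over 8 libraries. In order they included Mrgprb2 (0.394), Hs6st2, Gpr141b, Gm48934, Krt4, Muc13, Erv3, Cyp11a1 and Tpsab1 (0.779), against a median of 2.96 over all tested genes. Of these, 3 were on the list of other mast cell genes and 1 on the basophil list. With a prior count of 0.5 the list shared 5 of 10 genes, and over FCGR4- libraries alone 2 of 10, so its membership depends on these choices. Gpr141b, an orphan receptor gene, was 17.4, 19.9, 7.29 and 6.42 CPM in FCGR4- libraries and 0.0415 to 0.374 CPM in FCGR4+ libraries. Erv3 was at 0 in all 4 FCGR4+ libraries. Of the members Mcpt4 lay nearest to the median profile (0.232) and Hdc farthest (1.95).

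The profile of Hdc was set beside 6 neutrophil genes, picked after its values had been seen. S100a8 was 187, 182, 1211 and 249.96 CPM in FCGR4- libraries of mice 1 to 4 and 45.1, 36.4, 294 and 60.4 CPM in FCGR4+ libraries. S100a9 was 74.4, 51.3, 725 and 166 CPM against 16.2, 12.3, 157 and 30.4 CPM. Both calprotectin genes were highest in mouse 3 in both populations, as were Cxcr2, a neutrophil chemokine receptor gene (38.7 CPM in the FCGR4- and 4.89 CPM in the FCGR4+ library), and the gelatinase gene Mmp9 (87.8 and 9.89 CPM). The other two were highest in mouse 3 in 1 population each. Csf3r, the granulocyte colony-stimulating factor receptor gene, was 37.3, 110, 283 and 139 CPM in FCGR4- libraries but 42.8, 113, 52.7 and 51.0 CPM in FCGR4+ libraries, highest in mouse 2. Retnlg, a resistin-like gene, was 64.3, 22.3, 60.8 and 28.3 CPM in FCGR4- libraries, highest in mouse 1, and 3.96, 3.29, 13.3 and 1.47 CPM in FCGR4+ libraries, highest in mouse 3. Ly6g, whose product was gated out, was 5.45 CPM in FCGR4- mouse 3 and at most 1.47 CPM in every other library. The part of other myeloid cells in the level of Hdc was not tested.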

How the data were processed

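RNA was sequenced from 8 sorted libraries, 4 FCGR4+ and 4 FCGR4-, paired by mouse. The deposited values are raw read counts per gene: per the study's methods the authors aligned reads to mm10 with STAR and counted them with featureCounts 1.6.3 (per the file headers with GENCODE M18, read pairs, multiple mapping included, no strand). Gene lengths come from the same deposited file. The members and gene lists were chosen with earlier results of these data known.

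The 17095 genes that reached 10 counts in 4 or more of the 8 libraries were fitted in edgeR 4.0.16 (R 4.3.3) by the quasi-likelihood test with TMM factors, mouse as a block and population, with Benjamini-Hochberg adjustment over all tested genes and a threshold of 0.1. DESeq2 (the study's tool, here in version 1.42.0) and 11 other fits were alternatives. The script was tested on simulated counts. Libraries of a mouse deviated together (correlation of deviations from the group means 0.291 to 0.428, median between mice -0.0615), and both came from the same animal. No libraries of the same population agreed within sampling noise. CPM used tested counts and TMM factors, log2 CPM a prior count of 2. SEs are those of the fit. Named were the 10 genes, listed genes past the threshold, Mcpt1, Mcpt2, Mcpt8, Prss34, Tpsab1, Fcer1g, Kitl and Fcgr4 whatever their values, and the 10 nearest profiles, of which 1 is not reported here; other named genes were picked after seeing values. Shared 50-base words came from GENCODE M21 transcripts. Depth was 35992794 to 66856746 counts a library, where 3 counts are 0.0440 to 0.0883 CPM.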

Additional observations from a re-analysis of the deposited data

Results flagged for a closer look

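In 72 groups of 4 mice (log2 CPM in each population and per-mouse ratios of 24 genes: the 10 genes and the 14 listed mast cell and basophil genes that passed the test), 9 groups had 1 mouse far from the others, by the gap to the nearest other mouse divided by the range over all 4. Chance flags about 1 in 20 such groups, or 3.6 here.

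Among the 10 genes, Cpa3 in FCGR4+ libraries stood apart in mouse 1, at a log2 CPM of 2.41 beside 0.61 to 0.83 in the other mice (gap share 0.878). Fcer1a in FCGR4+ libraries stood apart in mouse 3, at -3.87 beside -1.08 to -0.56 (0.842), where it held 2 counts. The per-mouse log2 ratio of Cma1 was -3.30 in mouse 3 beside -6.28 to -5.80 (0.840), since the FCGR4- level was the lowest there while the FCGR4+ level was not. Tpsg1 in FCGR4+ libraries differed by a single count, 1 in mouse 1 and 0 elsewhere (gap share 1), which is under the floor of 3 counts.

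Among listed genes, Tph1 in FCGR4+ libraries was higher in mouse 1 (-0.64 beside -4.78 to -4.13, gap share 0.842), at 36 counts beside 0 to 1. Mrgprb1 in FCGR4+ libraries was lower in mouse 2 (-4.13 beside -2.31 to -1.94, 0.835), where it held 1 count. Itga2b in FCGR4+ libraries was lower in mouse 3 (-4.78 beside -2.31 to -2.03, 0.901), where it held 0 counts. The low values of these genes lie under the floor of 3 counts. Gata1 in FCGR4+ libraries held 2 counts in mouse 4 and 0 elsewhere (gap share 1). The per-mouse ratio of Rgs13 was smaller in mouse 2, -3.40 beside -4.46 to -4.29 (0.837).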

How the results depend on the processing

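The median log2 difference of the 10 genes (-5.72) stayed between -6.10 and -5.45 under every alternative that was fitted, and each gene was lower in FCGR4+ libraries in all of those that tested it. Counts of calls moved. With 10 counts required in every library, 256 of all 13923 genes tested were called. The 10 genes, all called lower in the fit reported, had 6 calls with no replicate block, 4 in mice 3 and 4 alone, 8 without mouse 1 and 9 without mouse 2, and with 10 counts required in every library 5 were tested and 5 called. Across all genes 217 were called, against 48 with no replicate block, 1024 by DESeq2, 1054 without a minimum count, 76 at an adjusted p under 0.05, 113 in mice 1 and 2 alone, 113 in mice 3 and 4 alone, and 84 to 163 when 1 mouse was left out (84 without mouse 1, 127 without mouse 2, 91 without mouse 4). Calls among other mast cell genes were 11, against 4 with no replicate block, 17 with DESeq2, 20 without a minimum, 2 with 10 counts in every library (11 genes tested), 2 in mice 3 and 4 alone, 7 at 0.05, and 4 to 9 when 1 mouse was left out (4 without mouse 1, 7 without mouse 2). Calls among basophil genes were 3, against 0 with no replicate block, 5 with DESeq2, 6 without a minimum, 1 with 10 counts in every library, 1 in mice 3 and 4 alone, and 1 to 4 when 1 mouse was left out (1 without mouse 1). IgE receptor signaling genes gave 0, against 1 with DESeq2, 1 without a minimum and 0 to 1 when 1 mouse was left out (1 without mouse 3). KIT pathway genes gave 0, against 1 with DESeq2. Mediator genes gave 0, against 1 with DESeq2, 4 without a minimum and 0 to 1 when 1 mouse was left out (1 without mouse 1). The replicate block changed no call in the IgE, KIT and mediator lists. Apart from fewer genes or mice in a fit, the cause was not tested. Ms4a2 and Gata2, at 0 in FCGR4+ libraries of mice 3 and 4, gave fitted values of -10.14 and -10.38 in those mice alone, which depend on the prior count. Without mouse 1 they were -6.57 and -7.13, DESeq2 gave -6.58 for Ms4a2, and mice 1 and 2 alone gave -5.01 for Gata2. Depth limits the FCGR4+ values of Tpsg1, Ms4a2, Gata2, Kit and Fcer1a, each at 3 counts or fewer in at least 1 library.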
